A study of Mus musculus with 8 samples.

Results

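The organic anion and cation transporters were taken as every gene whose symbol begins with Slc22a, Slco or Slc47a followed by a number, which gave 38 of the 20245 entries in the deposited tables. They fall into 12 organic anion transporters (Oat), 3 organic cation transporters (Oct), 3 carnitine and zwitterion transporters (Octn), 6 other Slc22 genes, 12 organic anion transporting polypeptides (Oatp, the Slco genes) and 2 proton-coupled cation extruders (Mate, the Slc47 genes). The 8 libraries were made from whole kidneys of mice of the C57BL/6 strain and form 4 groups of 2: wild-type kidneys with DMSO, the vehicle (WT_DMSO), or with flavopiridol (WT_FP), and kidneys of mice with autosomal dominant polycystic kidney disease with DMSO (PKD_DMSO) or flavopiridol (PKD_FP). Flavopiridol is an inhibitor of cyclin-dependent kinases, among them CDK9, the kinase of the elongation factor P-TEFb. The series examined P-TEFb in this disease. The mutated gene and how it was deleted, the dose and schedule, the age of the mice and whether the 2 libraries of a group came from separate mice could not be read from the labels. The p-values therefore describe the spread among these libraries alone, which may be technical.

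As background, cells of the proximal tubule clear drugs, toxins and metabolites from blood into urine. Oat and Oct proteins on the blood side take up organic anions and cations, and extruders such as Mate1 and several ABC pumps on the lumen side release them, while other members such as Urat1 return urate from the lumen. Several of these genes lie in tandem clusters, and some clusters expanded in rodents.

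Levels are given in FPKM, the reads or fragments per kilobase of transcript, scaled to the mapped total, so that levels can be set side by side between genes. Read depth is unknown, and no counting interval could be given. Of the 38 genes, 23 reached 5 FPKM in at least 1 library, 6 peaked between 1 and 5 FPKM, and 9 stayed below 1 FPKM in every library. At least 1 FPKM in all 8 libraries was found for 21 genes. A gene was tested where 2 or more libraries held 1 FPKM or more, which 27 of the 38 did. Of those 27, 4 (Slc22a7, Slc22a27, Slc22a28 and Slc22a30) passed only through the WT libraries and could therefore be called only as lower in PKD. The counts of calls among all members, the Oat genes and the chromosome 19 run are given with and without them. Counts of libraries that do not overlap include them.

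Libraries differed in cell type markers along with genotype. The summed FPKM of 15 proximal tubule markers was 5027 to 10123 in WT and 1457 to 2949 in PKD libraries, and that of 6 macrophage markers was 48.1 to 96.6 in WT and 436 to 831 in PKD. Summed injury markers were 1142 to 1709 and 10633 to 11954, thick ascending limb and distal tubule markers 1744 to 2253 and 906 to 1203, podocyte markers 28.5 to 42.7 and 5.53 to 22.3, and fibroblast markers 89.2 to 235 and 401 to 1164. Summed collecting duct markers overlapped, at 452 to 1408 FPKM in WT and 431 to 895 in PKD. In bulk RNA, fewer cells of a type and less RNA per cell cannot be told apart. One library stood apart: WT_FP replicate 2 had summed adipocyte markers of 388 FPKM, against 1.98 to 3.97 in the other WT libraries and 5.33 to 55.6 in PKD libraries, and the lowest proximal tubule sum of the WT libraries. Of the 4 liver markers Alb, Apoa1 and Apob stayed at or under 2.34 FPKM, and Ttr stood at 20.5 to 76.4.

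**Figure D1:**
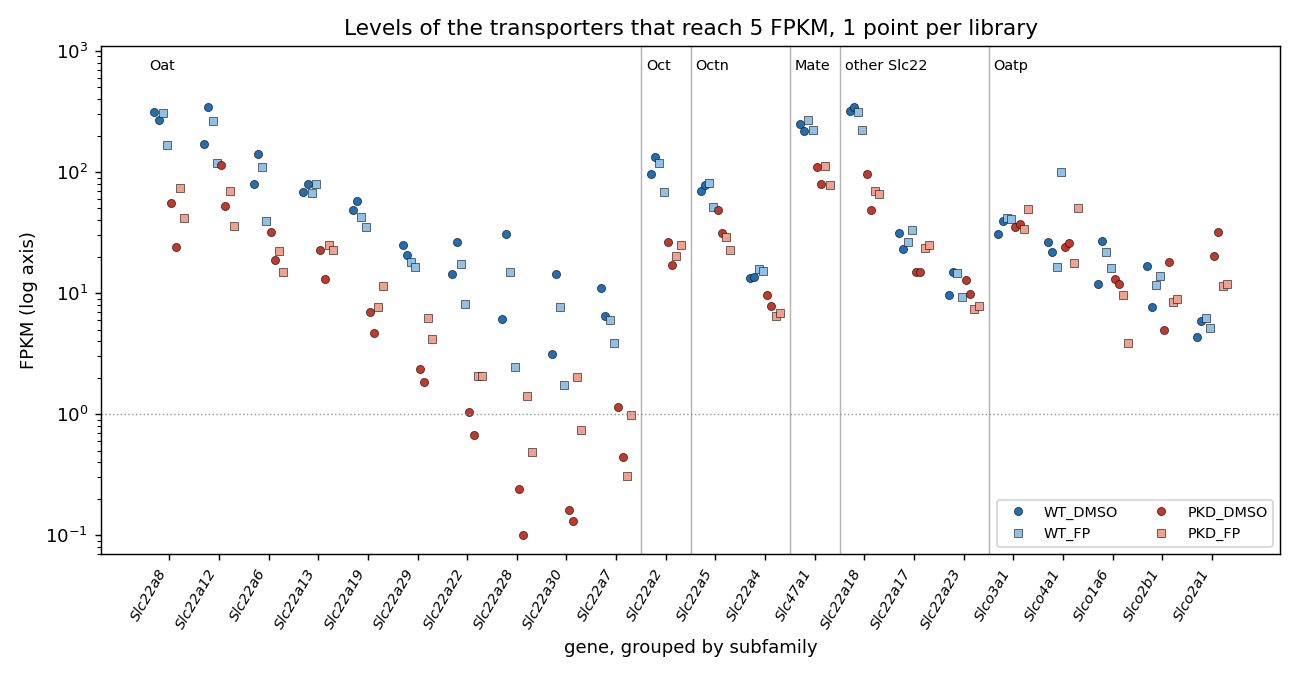
Level of 22 of the 23 transporter genes that reach 5 FPKM, by subfamily, with 1 point per library on a logarithmic FPKM axis (circles for DMSO, squares for FP, blue for WT, red for PKD); the dotted line marks 1 FPKM. Of the 10 Oat genes shown, 9 have all 4 PKD points below all 4 WT points (11.7% of all genes tested). Slc22a7 and Slc22a28 among them passed the filter only through the WT libraries. Among the 5 Oatp genes only Slco2a1 separates the genotypes, with PKD above WT (22% of all genes tested).

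Most of the transporter genes that differed between the genotypes were lower in PKD kidneys. The FPKM summed over all 38 genes was 1350 to 2141 in WT and 527 to 782 in PKD libraries. In PKD_DMSO against WT_DMSO, 15 of the 27 tested genes were lower and 1 was higher (limma on log2(FPKM + 1), Benjamini-Hochberg adjusted p under 0.05 over all 14391 genes tested). Over all genes tested, 7.52% were called lower and 14.8% higher. Among the 23 members that passed the filter in each genotype on its own, 11 were lower and 1 higher, against 7.66% lower and 14% higher of the 13076 genes held to the same filter. The median log2 fold change was -1.30 over the 27 members and 0.12 over all genes, and -0.80 and 0.11 under the filter in each genotype. Without reference to a test, all 4 PKD libraries lay below all 4 WT libraries in 15 of the 27 members (11.7% of all genes tested) and above them in 1 (22% of all genes). Those 15 include Slc22a7, Slc22a27 and Slc22a28, which passed the filter only through the WT libraries. The count was not repeated without them.

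The Oat genes made up 10 of the 15 lower members. Their summed level was 740 and 994 FPKM in WT_DMSO, 860 and 474 in WT_FP, 235 and 116 in PKD_DMSO, and 210 and 135 in PKD_FP. The lowest WT library, WT_FP replicate 2, still stood above every PKD library. Of the 11 Oat genes tested, 10 were lower in PKD_DMSO than in WT_DMSO and none was higher. Of the 7 that passed the filter in each genotype, 6 were lower (7.66% of all genes under that filter), with a median log2 fold change of -2.94.

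Slc22a8 and Slc22a6 encode Oat3 and Oat1, the main uptake transporters for organic anions on the blood side of the proximal tubule. Slc22a8 stood at 310 and 269 FPKM in WT_DMSO, 309 and 166 in WT_FP, 55.3 and 23.9 in PKD_DMSO, and 73.1 and 41.8 in PKD_FP, with no overlap between the genotypes. Its mean fell from 290 ± 29.2 to 39.6 ± 22.2 FPKM under vehicle (SD, n = 2), or -2.96 ± 0.48 (SE) as a log2 fold change (limma, adjusted p = 0.00955). Slc22a6 stood at 79.4 and 140 FPKM in WT_DMSO, 111 and 39.2 in WT_FP, 32.0 and 18.9 in PKD_DMSO, and 22.1 and 14.8 in PKD_FP. The genotypes did not overlap here either, but WT_FP replicate 2 lay near PKD_DMSO replicate 1, and the vehicle log2 fold change was -2.06 ± 0.53 (limma, adjusted p = 0.0369). The call for Slc22a6 was lost without any 1 of the 4 vehicle libraries (log2 fold changes of -1.65 to -2.46) or without either PKD_FP library (-2.06 each), and that for Slc22a8 without PKD_DMSO replicate 2 (-2.37).

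Slc22a7, which encodes Oat2, fell to levels near or under 1 FPKM in the diseased kidneys. It stood at 10.9 and 6.42 FPKM in WT_DMSO, 6.00 and 3.88 in WT_FP, 1.15 and 0.44 in PKD_DMSO, and 0.31 and 0.99 in PKD_FP. Its vehicle log2 fold change was -2.42 ± 0.36 (limma, adjusted p = 0.00759), lost without PKD_DMSO replicate 2 (-2.13). A level of 1 FPKM or more was reached in 1 of the 4 PKD libraries.

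Slc22a12 encodes Urat1, the urate reabsorber of the lumen side, and stood at 171 and 345 FPKM in WT_DMSO, 265 and 118 in WT_FP, 113 and 52.5 in PKD_DMSO, and 69.3 and 35.7 in PKD_FP. The vehicle groups did not overlap, yet the log2 fold change of -1.64 (95% interval -3.04 to -0.25) did not pass (limma, adjusted p = 0.0875). It passed with the treatments averaged, at -1.73 ± 0.41 (limma, adjusted p = 0.0198), a call lost without WT_DMSO replicate 2 (-1.47), WT_FP replicate 1 (-1.44), PKD_DMSO replicate 2 (-1.45) or PKD_FP replicate 2 (-1.49). Slc22a13, which encodes Oat10, stood at 68.7 and 80.1 FPKM in WT_DMSO, 67.3 and 80.1 in WT_FP, 22.7 and 13.1 in PKD_DMSO, and 24.9 and 22.5 in PKD_FP. Its WT levels were tight, its vehicle log2 fold change was -2.04 ± 0.25 (limma, adjusted p = 0.00472), and the call held in all 15 alternatives tried.

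Slc22a22 encodes a prostaglandin-specific organic anion transporter of the kidney. It stood at 14.4 and 26.6 FPKM in WT_DMSO, 17.4 and 8.15 in WT_FP, 1.05 and 0.67 in PKD_DMSO, and 2.07 in each PKD_FP library. Its vehicle log2 fold change was -3.47 ± 0.39 (limma, adjusted p = 0.00374), and the call held in all 15 alternatives. It went the opposite way to Slco2a1, another prostaglandin carrier described further on.

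Of the 12 Oat genes, 8 lie in a single run on chromosome 19 (GRCm38.p6). From Slc22a19 at 7673075 to 7711310 the run goes through Slc22a26, Slc22a27, Slc22a28, Slc22a29 and Slc22a30 (8335371 to 8405111) to Slc22a8 (8591254 to 8611835) and Slc22a6 (8617996 to 8628299), with no other protein-coding gene between neighbours. Slc22a8 and Slc22a6 are 6161 bp apart. The genes from Slc22a26 to Slc22a30 belong to a rodent expansion of the Oat family. Of the 8 genes in this run, 7 were tested and all 7 were lower in PKD_DMSO, 4 of 4 among those that passed the filter in each genotype (7.66% of all genes under that filter), and Slc22a26 stayed at or under 0.12 FPKM in every library. Slc22a12 lies on the same chromosome (6535854 to 6543070) with 33 coding genes between it and Slc22a19.

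Slc22a19, which encodes Oat5, stood at 48.9 and 58.0 FPKM in WT_DMSO, 42.6 and 35.3 in WT_FP, 6.95 and 4.70 in PKD_DMSO, and 7.68 and 11.3 in PKD_FP. Slc22a29 stood at 24.8 and 20.7 FPKM in WT_DMSO, 18.2 and 16.3 in WT_FP, 2.34 and 1.85 in PKD_DMSO, and 6.24 and 4.19 in PKD_FP. Both genes showed the order WT_DMSO, WT_FP, PKD_FP, PKD_DMSO from high to low with no overlap between any groups. Their vehicle log2 fold changes were -3.01 ± 0.24 and -2.94 ± 0.21 (limma, adjusted p = 0.00162 and 0.00151), and both calls held in all 15 alternatives.

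Slc22a28 stood at 6.15 and 31.0 FPKM in WT_DMSO, 14.98 and 2.44 in WT_FP, 0.24 and 0.10 in PKD_DMSO, and 1.40 and 0.49 in PKD_FP. Slc22a30 stood at 3.15 and 14.3 FPKM in WT_DMSO, 7.70 and 1.73 in WT_FP, 0.16 and 0.13 in PKD_DMSO, and 2.02 and 0.74 in PKD_FP. In both genes the 4 WT libraries held the same order, with WT_DMSO replicate 2 highest and WT_FP replicate 2 lowest. Slc22a27 ran from 0.83 to 2.38 FPKM in WT and from 0 to 0.47 in PKD libraries. The vehicle log2 fold changes were -3.70 ± 0.88 for Slc22a28, -2.80 ± 0.73 for Slc22a30 and -1.65 ± 0.31 for Slc22a27 (limma, adjusted p = 0.0283, 0.038 and 0.0136). All 3 calls were lost without PKD_DMSO replicate 1 (-3.78, -2.82 and -1.68) or replicate 2 (-3.61, -2.78 and -1.63), those for Slc22a28 and Slc22a30 also without WT_DMSO replicate 2 (-2.61 and -1.86), that for Slc22a30 also without either PKD_FP library (-2.80 each), and that for Slc22a27 without WT_DMSO replicate 1 (-1.58). In all, the calls were lost in 4, 7 and 3 of the 15 alternatives for Slc22a28, Slc22a30 and Slc22a27.

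These levels are uncertain where reads could be split between copies. In the longest GENCODE M21 transcript of each gene, 53.3% of the 50-base windows of Slc22a28 occur unchanged in Slc22a30, and 32.0% of those of Slc22a30 in Slc22a28. Slc22a27 shares 25.8% of its windows with Slc22a29. Of the windows of Slc22a29, 30.5% occur in other members, 24.4% in Slc22a27. The same holds for Slc22a13, with 36.0% of its windows shared with other members, chiefly the pseudogene Slc22a13b-ps, and for Slc22a5, with 27.1% shared with Slc22a21. No label or header states how reads that fit more than 1 gene were counted.

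Upstream of the genes, the highest identity by global alignment of 100 bases was that of Slc22a28 and Slc22a30, as given below the sequences. The 100 bases before the RefSeq start site (GRCm38.p6, minus strand for the 5 genes shown) are given for 3 members that share a run of 16 bases, in capitals. They are also given for their neighbour Slc22a26, at or under 0.12 FPKM, which lacks it. The run is also absent from these 100 bases of Slc22a6, Slc22a8, Slc22a19 and Slc22a27. These were lower in PKD_DMSO, as were the 3 that hold it, and Slc22a27 is shown as one of them. Slc22a28 lies at chr19:8131983-8132082, Slc22a29 at chr19:8218901-8219000, Slc22a30 at chr19:8405106-8405205, Slc22a26 at chr19:7802668-7802767 and Slc22a27 at chr19:7966028-7966127.
Slc22a28: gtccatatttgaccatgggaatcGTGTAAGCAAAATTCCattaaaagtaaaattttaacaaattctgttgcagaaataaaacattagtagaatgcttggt
Slc22a29: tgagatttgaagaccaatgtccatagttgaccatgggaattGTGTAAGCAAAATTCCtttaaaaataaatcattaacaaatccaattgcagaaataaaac
Slc22a30: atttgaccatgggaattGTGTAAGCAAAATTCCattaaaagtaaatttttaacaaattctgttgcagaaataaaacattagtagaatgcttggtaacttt
Slc22a26: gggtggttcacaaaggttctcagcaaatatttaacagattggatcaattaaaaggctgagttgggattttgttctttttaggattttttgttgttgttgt
Slc22a27: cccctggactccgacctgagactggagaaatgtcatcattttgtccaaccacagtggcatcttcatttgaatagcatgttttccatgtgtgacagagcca

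The run of 16 bases was taken as the longest stretch common to the 100 bases of Slc22a28, Slc22a29 and Slc22a30. These 3 therefore hold it by construction. On either strand it was found in no other of the 27025 genes with a RefSeq window of 300 bases around the start site (3 genes, 0.0111%). Since the run came from these genes, that share is no test of it. The run starts 77, 59 and 83 bases before the respective start sites. By global alignment the 100 bases of Slc22a28 and Slc22a30 are 86.8% identical, those of Slc22a28 and Slc22a29 62.2% and those of Slc22a29 and Slc22a30 57.6%. Slc22a19, which lacks the 16 bases, reached 62.3% with Slc22a28, 58.4% with Slc22a6 and 58.2% with Slc22a30, and 47.4% to 53.9% in its other pairs. The run lies at different distances from the start sites, and bases that hang over at the ends count as differences in such an alignment. Slc22a28 and Slc22a29 matched at 74 of 119 aligned columns, overhangs included. How alike the pairs with Slc22a29 are over the stretch they share can therefore not be read from these values. All 28 pairs among the 8 genes on chromosome 19 lie between 41.7% and 86.8%. No value here bears on what the shared run does.

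Of the organic cation transporters, Slc22a2 encodes Oct2, which takes up cations from blood, and stood at 96.9 and 133 FPKM in WT_DMSO, 118 and 68.4 in WT_FP, 26.6 and 16.99 in PKD_DMSO, and 20.3 and 25.1 in PKD_FP. Its vehicle log2 fold change was -2.36 ± 0.33 (limma, adjusted p = 0.00627), lost without PKD_DMSO replicate 2 (-2.06). The genotypes did not overlap. Slc22a3, which encodes Oct3, stayed under 1 FPKM in every library.

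Slc47a1 encodes Mate1, the extruder that passes cations from the cell to the lumen. It stood at 248 and 218 FPKM in WT_DMSO, 268 and 223 in WT_FP, 111 and 79.4 in PKD_DMSO, and 112 and 77.9 in PKD_FP. The genotypes were well apart and the treatments within a genotype overlapped. Its vehicle log2 fold change was -1.30 ± 0.25 (limma, adjusted p = 0.0145), lost without WT_DMSO replicate 1 (-1.21) or PKD_DMSO replicate 2 (-1.07). Slc47a2, separated from Slc47a1 by 540 bp on chromosome 11, stayed at or under 0.32 FPKM.

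Among the Octn genes, Slc22a5 encodes the carnitine transporter Octn2 and Slc22a4 the ergothioneine transporter Octn1. Slc22a5 stood at 69.9 and 77.9 FPKM in WT_DMSO, 81.7 and 51.3 in WT_FP, 48.3 and 31.6 in PKD_DMSO, and 29.1 and 22.9 in PKD_FP. The genotypes did not overlap, with WT_FP replicate 2 and PKD_DMSO replicate 1 nearest each other. The vehicle log2 fold change of -0.90 (95% interval -1.59 to -0.22) did not pass (limma, adjusted p = 0.0655), while under FP it was -1.29 (limma, adjusted p = 0.033). Slc22a4 stood at 13.4 and 13.5 FPKM in WT_DMSO, 15.7 and 15.3 in WT_FP, 9.60 and 7.87 in PKD_DMSO, and 6.47 and 6.82 in PKD_FP. Its log2 fold change was -0.58 ± 0.15 under vehicle (limma, adjusted p = 0.0345), a call lost in 10 of 15 alternatives, among them leaving out any 1 of the 8 libraries (-0.45 to -0.70), and -1.11 under FP (limma, adjusted p = 0.00967). Slc22a21, which encodes Octn3 and lies between both on chromosome 11, ranged from 1.25 to 3.04 FPKM in WT and from 1.86 to 2.60 in PKD and was not called.

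Of the other Slc22 genes, Slc22a18, from an imprinted locus on chromosome 7 (143473726 to 143499334), was among the highest of the set. It stood at 322 and 344 FPKM in WT_DMSO, 313 and 222 in WT_FP, 95.5 and 48.9 in PKD_DMSO, and 69.9 and 65.4 in PKD_FP, and its vehicle log2 fold change was -2.27 ± 0.32 (limma, adjusted p = 0.0065), held in all 15 alternatives. Slc22a17 encodes a receptor for lipocalin 2. It stood at 31.1 and 23.0 FPKM in WT_DMSO, 26.3 and 32.9 in WT_FP, 15 and 14.95 in PKD_DMSO, and 23.6 and 25.0 in PKD_FP. Only the PKD_DMSO pair lay apart, and the vehicle log2 fold change was -0.80 ± 0.18 (limma, adjusted p = 0.0262), lost in 5 of 15 alternatives, among them without WT_DMSO replicate 1 (-0.59) or either PKD_DMSO library (-0.80 each). Lcn2, the gene for lipocalin 2 and an injury marker, ranged from 6.44 to 19.3 FPKM in WT and from 476 to 1125 in PKD libraries.

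Slc22a23, of unsettled substrate, ranged from 9.28 to 14.9 FPKM in WT and from 7.34 to 12.8 in PKD, and Slc22a15 from 1.02 to 2.37 and from 2.04 to 2.16. Neither was called. Slc22a14 (0.23 to 1.27 FPKM over the 8 libraries) and Slc22a13b-ps (0.44 to 1.47) did not pass the filter on low values.

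None of the 6 Oatp genes tested was called lower in any comparison of the genotypes, where 5.23% to 12.6% of all genes were, so that 0 of 6 lies near the background. Their summed level was 91.4 to 179 FPKM in WT and 82.0 to 128 in PKD libraries, which overlap. The largest summed level belonged to WT_FP replicate 2, in which Slco4a1 alone made up 100 FPKM.

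Slco2a1, which encodes the prostaglandin transporter, was the 1 member called higher. It lies on chromosome 9 at 103007061 to 103096002. It stood at 4.36 and 5.87 FPKM in WT_DMSO, 6.17 and 5.17 in WT_FP, 20.3 and 31.9 in PKD_DMSO, and 11.4 and 11.8 in PKD_FP, so that every PKD library exceeded every WT library and the PKD_FP pair lay below the PKD_DMSO pair. Its vehicle mean was 5.12 ± 1.07 FPKM in WT and 26.1 ± 8.22 in PKD (SD, n = 2 each), or 2.12 ± 0.24 as a log2 fold change (limma, adjusted p = 0.00374), a call that held in all 15 alternatives. Under FP it was 0.92 ± 0.24 (limma, adjusted p = 0.0493), a call lost in 11 of 15 alternatives, among them leaving out any 1 WT or PKD_FP library (0.81 to 1.03). Slco2a1 is also known from endothelium and macrophages. The 6 endothelial markers summed to 202 to 432 FPKM in WT and 63.1 to 218 in PKD libraries with none called, and the macrophage markers were higher in PKD (6 of 6 called in PKD_DMSO against WT_DMSO). Their part in the Slco2a1 difference was not tested.

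The other 5 Oatp genes tested overlapped between the genotypes. Slco3a1, a broadly expressed member, stood at 30.6 and 39.2 FPKM in WT_DMSO, 41.5 and 40.7 in WT_FP, 35.2 and 36.9 in PKD_DMSO, and 34.0 and 49.1 in PKD_FP. Its vehicle log2 fold change of 0.06 had a 95% interval from -0.44 to 0.55 (limma, adjusted p = 0.868), and its sign turned with median-of-ratios scaling (-0.10). Slco1a6, an Oatp of mouse kidney, stood at 11.9 and 27.0 FPKM in WT_DMSO, 21.9 and 16.2 in WT_FP, 13.2 and 11.8 in PKD_DMSO, and 9.73 and 3.84 in PKD_FP. Its vehicle log2 fold change was -0.50 with a 95% interval from -1.61 to 0.61 (limma, adjusted p = 0.473), and with the treatments averaged it was -0.98 (limma, adjusted p = 0.0596).

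Slco2b1, a carrier of steroid sulfates, stood at 16.7 and 7.65 FPKM in WT_DMSO, 11.7 and 13.9 in WT_FP, 4.93 and 17.9 in PKD_DMSO, and 8.46 and 8.87 in PKD_FP. The PKD_DMSO pair spanned the whole range of the gene, and PKD_DMSO replicate 1 was also the library with the lowest endothelial sum. Slco4a1 stood at 26.3 and 22.0 FPKM in WT_DMSO, 16.4 and 100 in WT_FP, 23.8 and 26.1 in PKD_DMSO, and 17.7 and 50.8 in PKD_FP. Its pair of high libraries, WT_FP replicate 2 and PKD_FP replicate 2, also had the highest level of the collecting duct marker Aqp2 (1344 and 854 FPKM, against 385 to 799 in the others), while the other collecting duct markers, Scnn1g (19.1 and 18.1) and Atp6v1g3 (44.9 and 22.8), were not highest there. The part of either cell type was not tested. Slco4c1, an Oatp of the kidney, ranged from 0.67 to 3.41 FPKM in WT and from 0.27 to 2.32 in PKD.

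The 9 genes below 1 FPKM in every library were Slc22a3, Slc22a26, Slc47a2, Slco1a1, Slco1a4, Slco1a5, Slco1b2, Slco1c1 and Slco5a1. Slco1b2 is known as a liver gene and Slco1c1 as a transporter of brain vessels. Slco1a1, known as androgen-dependent in mouse kidney, stayed at or under 0.09 FPKM in libraries where the androgen-regulated kidney gene Kap stood at 15475 to 26700 FPKM in WT and 1221 to 4300 in PKD. Kap was the 1 gene called, as lower, of 3 listed as androgen-regulated, in each comparison of the genotypes. Slco5a1 was 0 to 0.01 FPKM in WT and 0.04 to 0.22 in PKD libraries, under the filter and without a test here.

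**Figure D2:**
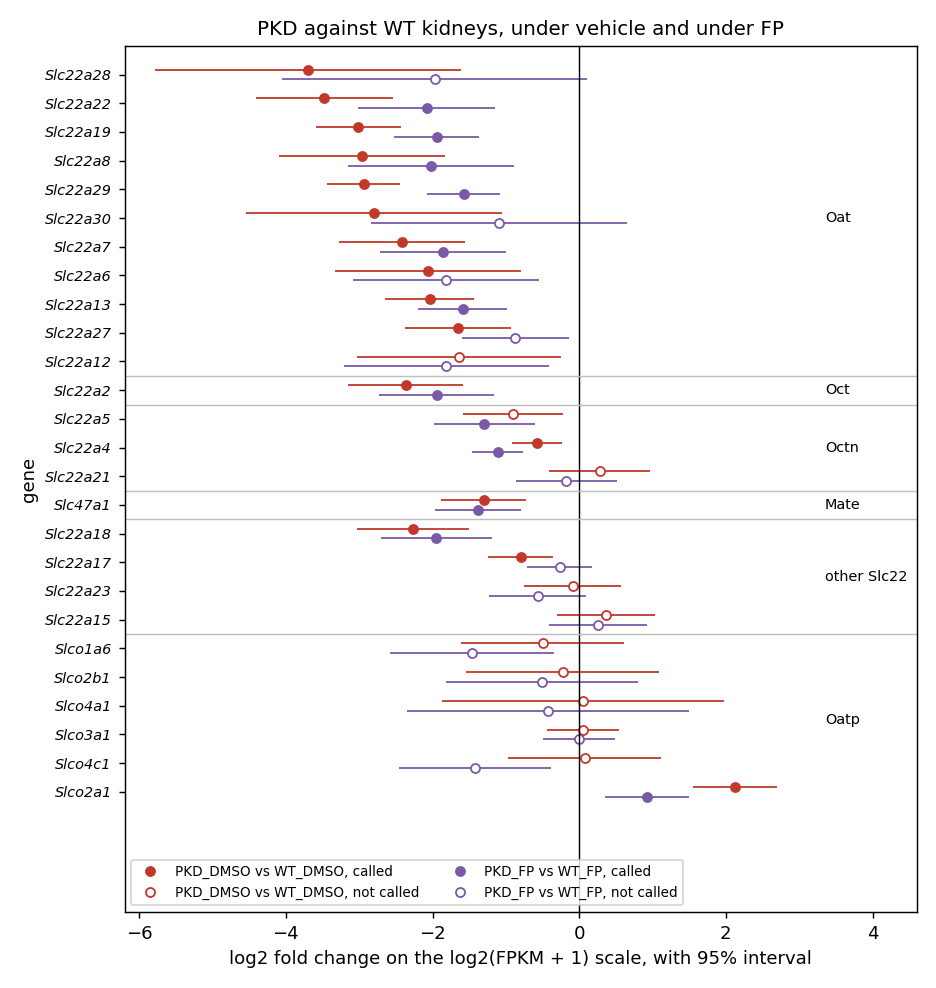
Log2 fold change of PKD against WT with its 95% interval for 26 of the 27 tested genes, under vehicle (red) and under FP (purple), on the log2(FPKM + 1) scale; filled points passed the adjusted threshold. Under vehicle 15 points are filled left of 0 and 1, Slco2a1, right of it, and under FP 11 and 1.

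The comparison under flavopiridol, PKD_FP against WT_FP, asks whether the genotype difference is also seen with the drug. It called 11 of the 27 members lower and 1 higher (5.23% and 8.71% of all genes tested). Of the 23 that passed in each genotype, 10 were lower and 1 higher (5.42% and 8.24% of genes held to that filter). Of these 12 calls, 11 were also made under vehicle; Slc22a5 was called only under FP, and Slc22a6, Slc22a17, Slc22a27, Slc22a28 and Slc22a30 only under vehicle. A call in one comparison and not in the other is no difference between them, which the interaction below tests. The log2 fold changes were -2.08 for Slc22a22, -2.02 for Slc22a8, -1.95 for Slc22a18, -1.94 for both Slc22a19 and Slc22a2, -1.86 for Slc22a7, -1.59 for Slc22a13, -1.57 for Slc22a29 and -1.38 for Slc47a1 (limma, adjusted p from 0.00869 to 0.0386). None of the 12 calls held in all 15 alternatives, and the count of lower members was 0 without WT_FP replicate 1, 3 without PKD_FP replicate 1 and 1 without PKD_FP replicate 2.

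With the treatments averaged, which draws on 4 libraries of each genotype, 17 members were lower and 1 higher (12.6% and 21.7% of all genes tested, 34.3% in either direction; 13 and 1 of the 23, where 12.6% and 20.6% of genes under that filter were called). All 11 tested Oat genes were among the 17, and all 7 of those that passed the filter in each genotype. Slc22a12 and Slc22a5 were called in addition to the 16 of the vehicle comparison, and 14 of the 18 calls held in all 14 alternatives. The smallest adjusted p belonged to Slc22a29, with -2.26 ± 0.15, and Slc22a19, with -2.48 ± 0.17 (limma, adjusted p = 0.000382 and 0.000416). The calls that did not hold were Slc22a12, Slc22a17, Slc22a28 and Slc22a30. Slc22a17 (-0.53) was lost without WT_FP replicate 2 or any 1 PKD library (-0.45 to -0.55), Slc22a28 (-2.83) without PKD_DMSO replicate 2 (-2.79) or PKD_FP replicate 2 (-2.66), and Slc22a30 (-1.94) in 7 of 14 alternatives, among them without WT_DMSO replicate 2, WT_FP replicate 1 or any 1 PKD library (-1.47 to -2.14).

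**Figure D3:**
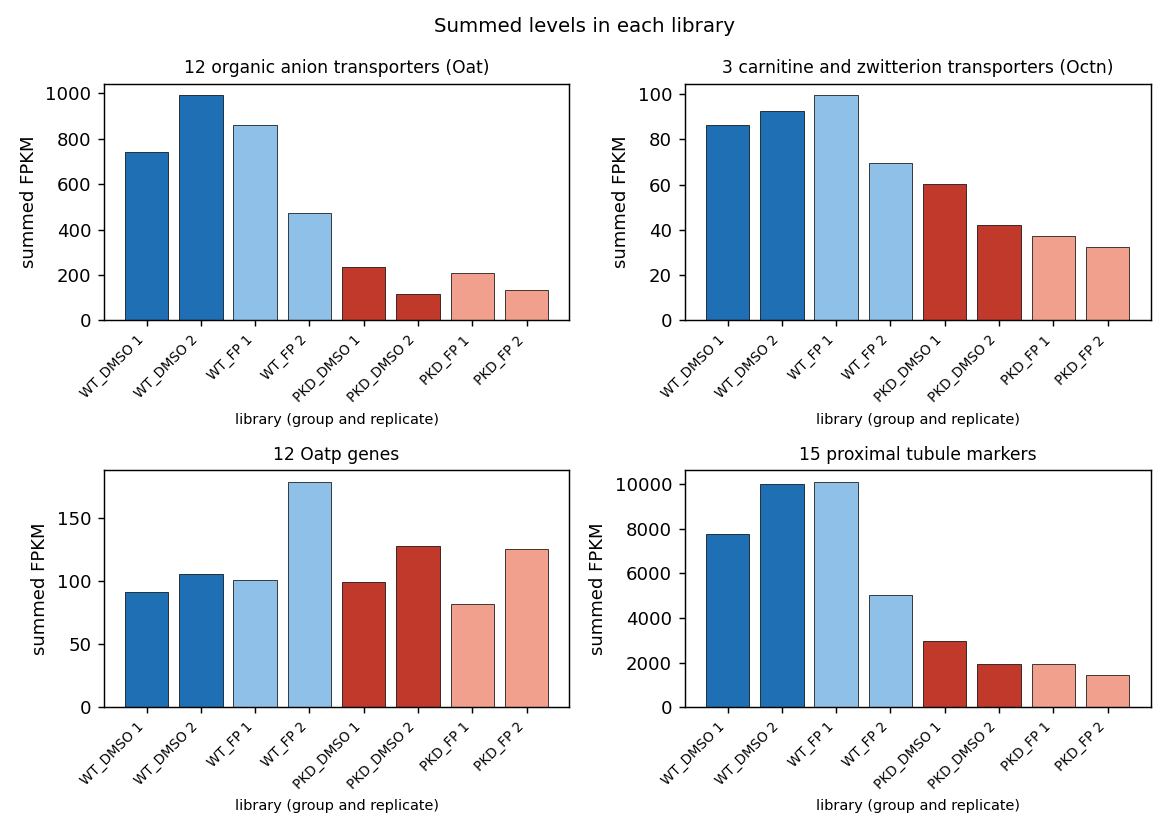
Summed FPKM in each library for 12 Oat genes, 3 Octn genes, 12 Oatp genes and 15 proximal tubule markers, as bars from 0, blue for WT and red for PKD, dark for DMSO and light for FP. The Oat, Octn and marker sums of every PKD library lie below those of every WT library, and the Oatp sum is highest in WT_FP replicate 2 at 179 FPKM.

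Proximal tubule markers were lower in PKD along with the transporters, as were some other nephron markers. Of the 15 markers, 7 were lower and none higher in PKD_DMSO than in WT_DMSO (7.52% of all genes lower), with a median log2 fold change of -1.34. With the treatments averaged 12 were lower (12.6% of all genes), with a median of -1.62. All 4 thick ascending limb and distal tubule markers were lower with the treatments averaged, and 2 of 4 under vehicle. Both podocyte markers were lower in each of these 2 comparisons. Of 3 collecting duct markers, 1 was lower in each. With the treatments averaged 2 of 4 fibroblast markers were higher (21.7% of all genes). Their part in the transporter differences was not tested.

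Genes that work beside the transporters (other efflux pumps and urate carriers, dicarboxylate carriers, scaffolds and transcription factors) were called in both directions. More were lower than higher in each comparison of the genotypes. Of 33 such genes 32 were tested, and 4 were higher and 6 lower in PKD_DMSO than in WT_DMSO, with a median log2 fold change of -0.35 (14.8% of all genes higher and 7.52% lower). In PKD_FP against WT_FP 1 was higher and 8 lower (8.71% and 5.23% of all genes), with a median of -0.87. With the treatments averaged 3 were higher and 14 lower (21.7% and 12.6% of all genes), with a median of -0.55. The 4 genes higher under vehicle were the efflux pumps Abcc3 (0.89) and Abcc4 (0.71) and the transcription factors Ahr (1.27), the dioxin receptor, and Nfe2l2 (0.96), which drives antioxidant genes (limma, adjusted p = 0.0147, 0.0499, 0.028 and 0.00739). Among the 6 lower under vehicle were Slc51b (-2.22), a subunit of the basolateral bile acid exporter, Slc17a3 (-1.86), a urate exporter, the pump Abcc6 (-0.82), and Pdzk1ip1 (-0.98) and Slc9a3r2 (-1.44), from the list of scaffolds and their partners (limma, adjusted p = 0.00196, 0.0355, 0.0413, 0.0455 and 0.0462). None of the 3 dicarboxylate carriers, which supply the counter-anion for Oat1 and Oat3, was called under vehicle. Slc13a2 was lower under FP (-1.58), and with the treatments averaged both Slc13a2 (-1.15) and Slc13a3 (-1.68) were lower (limma, adjusted p = 0.0309, 0.0124 and 0.0141). Hnf4a, a transcription factor of the proximal tubule, stood at 125 and 171 FPKM in WT_DMSO, 144 and 76.5 in WT_FP, 100.4 and 75.5 in PKD_DMSO, and 92.9 and 38.0 in PKD_FP, and was not called.

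Flavopiridol against vehicle changed no member past the threshold in either genotype. In PKD_FP against PKD_DMSO, 0 of 27 members were called (limma; 0.00695% of all genes in each direction, 0.0139% in either), and at an unadjusted p under 0.05 there were 3 higher and 2 lower (10.3% and 9.14% of all genes). These were Slc22a29 (0.99 ± 0.21), Slc22a17 (0.66 ± 0.18) and Slc22a19 (0.62 ± 0.24), and Slco2a1 (-1.07 ± 0.24) and Slco4c1 (-1.15 ± 0.44), as log2 fold changes (limma, adjusted p = 0.125, 0.149, 0.233, 0.125 and 0.224). By levels alone, both PKD_FP libraries lay above both PKD_DMSO libraries in 7 of the 27 members (31.4% of all genes) and below in 7 (25.2%). Of the 7 above, 6 were Oat genes (Slc22a19, Slc22a22, Slc22a27, Slc22a28, Slc22a29 and Slc22a30) and the other was Slc22a17. Slc22a27, Slc22a28 and Slc22a30 stood at or under 0.24 FPKM in PKD_DMSO. Reads may also be split between copies for Slc22a27, Slc22a28, Slc22a29 and Slc22a30, as described above, so these may not be separate observations. Slc22a19 shared 1.5% of its 50-base windows with other members, and Slc22a22 shared 0%. Among the 7 below were Slc22a4, Slc22a5, Slc22a23, Slco1a6, Slco2a1 and Slco4c1. The proximal tubule sum was 2949 and 1951 FPKM in PKD_DMSO and 1925 and 1457 in PKD_FP. Over the 15 markers the median log2 fold change was -0.62, from -1.94 to 1.87, with none called. Lrp2, Cubn, Slc5a2, Slc5a12, Pck1, Fbp1, Aqp1 and Slc3a1 were lower in both PKD_FP libraries than in both PKD_DMSO libraries. Miox (203 and 85.9, then 377 and 280) and Slc7a13 (1.95 and 1.21, then 16.5 and 3.96) were higher in both, and the remaining markers overlapped. The part of proximal tubule content in the transporter levels was not tested. The PKD_FP levels of the 6 Oat genes all stayed below the WT levels, with the exception of Slc22a30, where PKD_FP replicate 1 (2.02) exceeded WT_FP replicate 2 (1.73).

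**Figure D4:**
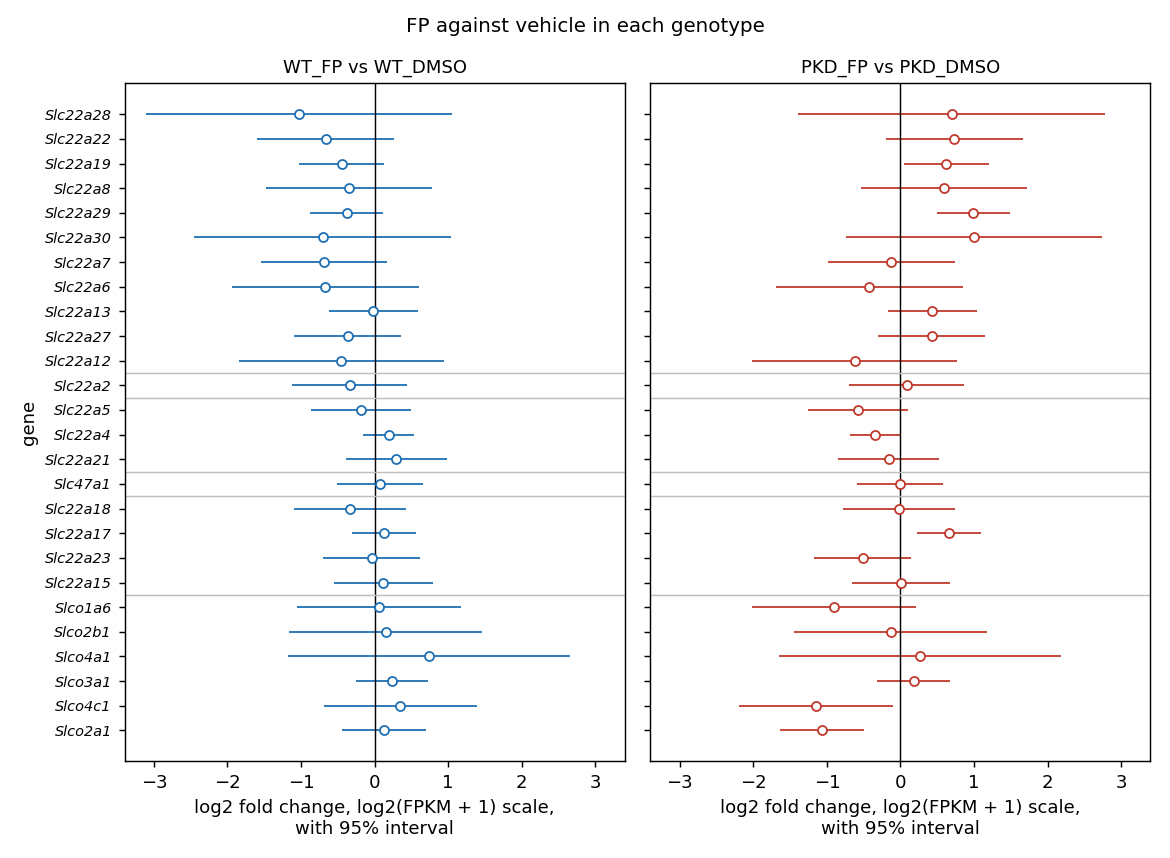
Log2 fold change of FP against vehicle with its 95% interval for 26 of the 27 tested genes, in WT (left, blue) and PKD kidneys (right, red), on the log2(FPKM + 1) scale. All points are open since no gene drawn passed the adjusted threshold; in PKD, the intervals of Slc22a29, Slc22a19 and Slc22a17 lie right of 0 and those of Slco2a1 and Slco4c1 left of it.

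In WT_FP against WT_DMSO, 0 of 27 members were called (limma; 0% of all genes) and 0 at an unadjusted p under 0.05 (0.91% of all genes higher and 0.361% lower). The WT_FP pair lay below the WT_DMSO pair in 4 members, Slc22a7, Slc22a18, Slc22a19 and Slc22a29 (5.32% of all genes), and above it in 2, Slc22a4 and Slco3a1 (16.6%). The log2 fold change was below 0 in 16 of 27 members with a median of -0.19, and without WT_FP replicate 2, the library with high adipocyte markers, it was below 0 in 10 of 27 with a median of 0.08.

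The interaction, which asks whether the drug difference differed between the genotypes, called 0 of 27 members (limma; 0% of all genes). At an unadjusted p under 0.05 there were 3 higher (4.45% of all genes) and 3 lower (6.78%). The 3 higher were Slc22a29 (1.37), Slc22a22 (1.39) and Slc22a19 (1.07), and the 3 lower Slco2a1 (-1.20), Slc22a4 (-0.54) and Slco4c1 (-1.50), each on the log2 scale (limma, adjusted p from 0.384 to 0.441). Both comparisons of genotype share libraries with the comparisons of drug, so a high or low WT_DMSO or PKD_DMSO library enters several of these values.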

How the data were processed

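Whole-kidney RNA was extracted with TRIzol and oligo(dT)-selected, per the labels' protocols. The deposited values are taken as FPKM made by the authors: the file headers name no unit, and the unit was inferred since value times transcript length summed to nearly the same total in every library. Per the submitters' processing notes, Bowtie2, DESeq2 and the build mm10 were used, with neither version nor role stated; the counting tool and annotation were not given in the sources used here. Groups came from the labels. Deposited values were put on the log2(FPKM + 1) scale and fitted with limma 3.58.1 in R 4.3.3 (1 mean for each of 4 groups over 8 libraries, empirical Bayes with trend and robust settings). The 14391 genes at 1 FPKM or more in 2 or more libraries were tested two-sided, with Benjamini-Hochberg adjustment and a threshold of 0.05, in 6 contrasts. A fold change on this scale understates the change of low genes. Left out were 4 entries of 2 repeated symbols and 1 entry with a dash as symbol. The fit was run on simulated data with noise drawn independently for each gene and library, so deviations shared between libraries were not covered. Coordinates and promoter windows are from RefSeq (GRCm38.p6; 38 of 38 members matched).

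The members and gene lists were chosen with earlier results of these data known. Per-library values are given for members that reach 5 FPKM or were called, ranges for those between 1 and 5 FPKM, and names for the rest; 1 member enters the counts and sums but its own values, like some results outside the set, are not reported here. Genes outside the set are named where called or where a result turns on them. The filter within each genotype was chosen after the values were seen. Alternatives were no low-value filter, a pseudocount of 0.1, median-of-ratios and quantile scaling, a fit to only the groups compared, a block for the replicate number, and each library left out in turn.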

Additional observations from a re-analysis of the deposited data

Results flagged for a closer look

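In 3 of the 27 members tested, the FP libraries lay on opposite sides of the vehicle libraries in the genotypes, with no overlap in either, as in 7.69% of all genes tested: Slc22a19 and Slc22a29 lay lower with FP in WT and higher in PKD kidneys, and Slc22a4 the reverse. The difference itself was tested as the interaction, which was 1.07 for Slc22a19, 1.37 for Slc22a29 and -0.54 for Slc22a4 on the log2 scale (limma, adjusted p = 0.406, 0.384 and 0.428), and none passed. With 2 libraries in a group, no library could be tested as standing apart from its own group.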

How the results depend on the processing

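The split in PKD_DMSO against WT_DMSO, 15 lower and 1 higher, ranged from 5 to 15 lower with 1 library left out (9 without PKD_DMSO replicate 1, 5 without PKD_DMSO replicate 2) and stayed at 1 higher. In PKD_FP against WT_FP, leaving out 1 library gave 0 to 12 lower (0 without WT_FP replicate 1, 3 and 1 without PKD_FP replicate 1 and 2) and 0 to 1 higher. With the treatments averaged it gave 13 to 19 lower and 1 higher. Without the low-value filter, 2 members were higher under vehicle and 2 with the treatments averaged, Slco5a1 being the addition, and 0 under FP. Higher calls under FP were also 0 with the replicate block, median-of-ratios scaling, quantile normalization and only the groups compared. The sign of the vehicle log2 fold change turned for Slco3a1 (-0.10 with median-of-ratios scaling, and -0.12 to 0.23 with 1 library left out, the lowest without WT_DMSO replicate 1) and Slco1a6 (-1.06 to 0.062 with 1 library left out, the highest without WT_DMSO replicate 2). With median-of-ratios scaling the vehicle value was below 0 in 24 of the 27 members, against 21 without it. It moved the median of all genes under vehicle from 0.12 to -0.01. The cause of these changes was not tested, though a fit with fewer libraries has less power. Same-numbered libraries did not pair: their deviations correlated from -0.515 to 0.485 between groups. With the replicate block, 11 members were lower and 1 higher under vehicle, 11 and 0 under FP, and 16 and 1 averaged; the block ended the vehicle calls of Slc22a4, Slc22a17, Slc22a28 and Slc22a30 and the averaged call of Slc22a30. A fit of only the groups compared ended the vehicle calls of Slc22a4 and Slc22a17, and no filter those of Slc22a6 and Slc22a30. With the numbers of WT_DMSO crossed, chosen after seeing the data, the counts were 18 and 1, 17 and 1, and 19 and 1. The comparisons of drug and the interaction gave 0 calls in every alternative run. Read depth is unknown, so precision at low levels could not be stated.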
